A study of Mus musculus with 30 samples.

Results

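The basal and differentiated epidermal keratins were followed through a phorbol ester response in mouse back skin. They comprised 10 genes chosen by name, and the array carried 13 probe sets whose gene symbol was one of them, out of 45037 probe sets for 22121 gene symbols. Krt5, Krt14 and Krt15 are keratins of the basal layer, Krt1, Krt10 and Krt77 of the suprabasal layers, and Krt79, Krt80, Krt24 and Krt19 of other differentiating or appendage cells. Krt14 had 4 probe sets and each of the other 9 genes had 1. All 13 passed the filter on dim probe sets, a mean over all arrays of at least 3.72 on the log2 scale.

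The skin came from female 129–C57BL/6 mice of 8 to 12 weeks, either WT or D6-deficient, and was shaved before treatment. D6 is a decoy receptor that removes inflammatory chemokines, and the labels call the mutants D6 null with no restriction to a cell type. Mice received 3 applications of 50 µM TPA, a phorbol ester that irritates skin, 24 h apart, and whole back skin was taken 1, 2, 4 or 6 days later. Day 0 arrays of both genotypes were acetone-treated controls, which their titles call untreated. There were 30 Affymetrix arrays, 3 to a combination of genotype and day, labelled as biological replicates. The values were intensities summarized by RMA, given here as log2, on which a step of 1 is a doubling of intensity, and a level on 1 probe set cannot be set against that on another.

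Keratin filaments are built from pairs of a type I and a type II chain. Dividing cells of the basal layer, attached to the basement membrane, make Krt5 with Krt14. When such a cell leaves that layer it makes Krt1 with Krt10, and it later fills with the proteins of the granular layer before it is shed. Krt15 is a basal type I keratin that is also known from the hair follicle bulge, and Krt79 is known from the follicle opening and the duct of the sebaceous gland. The member genes lie in the type I cluster on chromosome 11 (Krt14, Krt15, Krt10, Krt24 and Krt19) and in the type II cluster on chromosome 15 (Krt5, Krt1, Krt77, Krt79 and Krt80).

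The 250 bases before the listed start are shown for Krt10 and Krt77, the members with the largest falls after TPA, and for the basal gene Krt5. All 3 genes lie on the minus strand, and the sequences, from RefSeq on GRCm38.p6, run 5′ to 3′ on the strand of the gene. Capitals mark TATAAA, searched together with TGANTCA on both strands.
Krt10 (chr11:99389365-99389614): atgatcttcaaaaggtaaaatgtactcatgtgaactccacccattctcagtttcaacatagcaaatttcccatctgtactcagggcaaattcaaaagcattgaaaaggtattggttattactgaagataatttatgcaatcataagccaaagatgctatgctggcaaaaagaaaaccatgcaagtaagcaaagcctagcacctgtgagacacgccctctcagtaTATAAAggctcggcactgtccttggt
Krt77 (chr15:101869706-101869955): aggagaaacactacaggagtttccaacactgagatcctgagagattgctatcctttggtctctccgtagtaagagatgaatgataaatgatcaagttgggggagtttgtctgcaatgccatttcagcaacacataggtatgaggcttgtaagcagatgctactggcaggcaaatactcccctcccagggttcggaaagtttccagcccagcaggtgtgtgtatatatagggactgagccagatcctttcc
Krt5 (chr15:101712906-101713155): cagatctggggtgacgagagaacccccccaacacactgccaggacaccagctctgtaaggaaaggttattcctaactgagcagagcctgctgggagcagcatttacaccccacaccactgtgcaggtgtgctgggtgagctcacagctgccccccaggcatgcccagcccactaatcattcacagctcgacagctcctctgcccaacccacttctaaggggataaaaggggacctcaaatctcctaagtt
Only the Krt10 window held TATAAA, whose first base lay 26 bases before the listed start, and none held TGANTCA. Over all 32851 windows of this length, 12.4% held TATAAA and 6.75% TGANTCA. Of the 10 members 6 had a listed window, and the other 3, those of Krt14, Krt24 and Krt79, held neither motif. The listed starts of Krt10 and Krt14 lay inside the annotated gene spans, and that of Krt77 by 1 base.

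Medians of the arrays ran from 5.64 to 5.80 and the highest value of any probe set on any array was 14.98. Among probe sets the SD within groups had a median of 0.187. On 1 of 3 probe sets of Ccbp2, the D6 gene, WT arrays ran from 4.15 to 5.76 and D6-deficient arrays from 3.30 to 3.86, whereas both other probe sets overlapped. Whole back skin also holds muscle, fat, leukocytes and hair follicles. The summed level of a gene list is the log2 of its added intensities, set mainly by its brightest genes. For the hair shaft and inner root sheath keratins (17 genes tested) it was between 9.06 and 9.40 on every array of days 0, 2 and 4. On every array of days 1 and 6 it was between 11.69 and 16.50. Skeletal muscle markers (8 genes) were at 16.63 to 16.94 on the day 0 arrays and at 14.63 to 16.10 on all others.

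**Figure D1:**
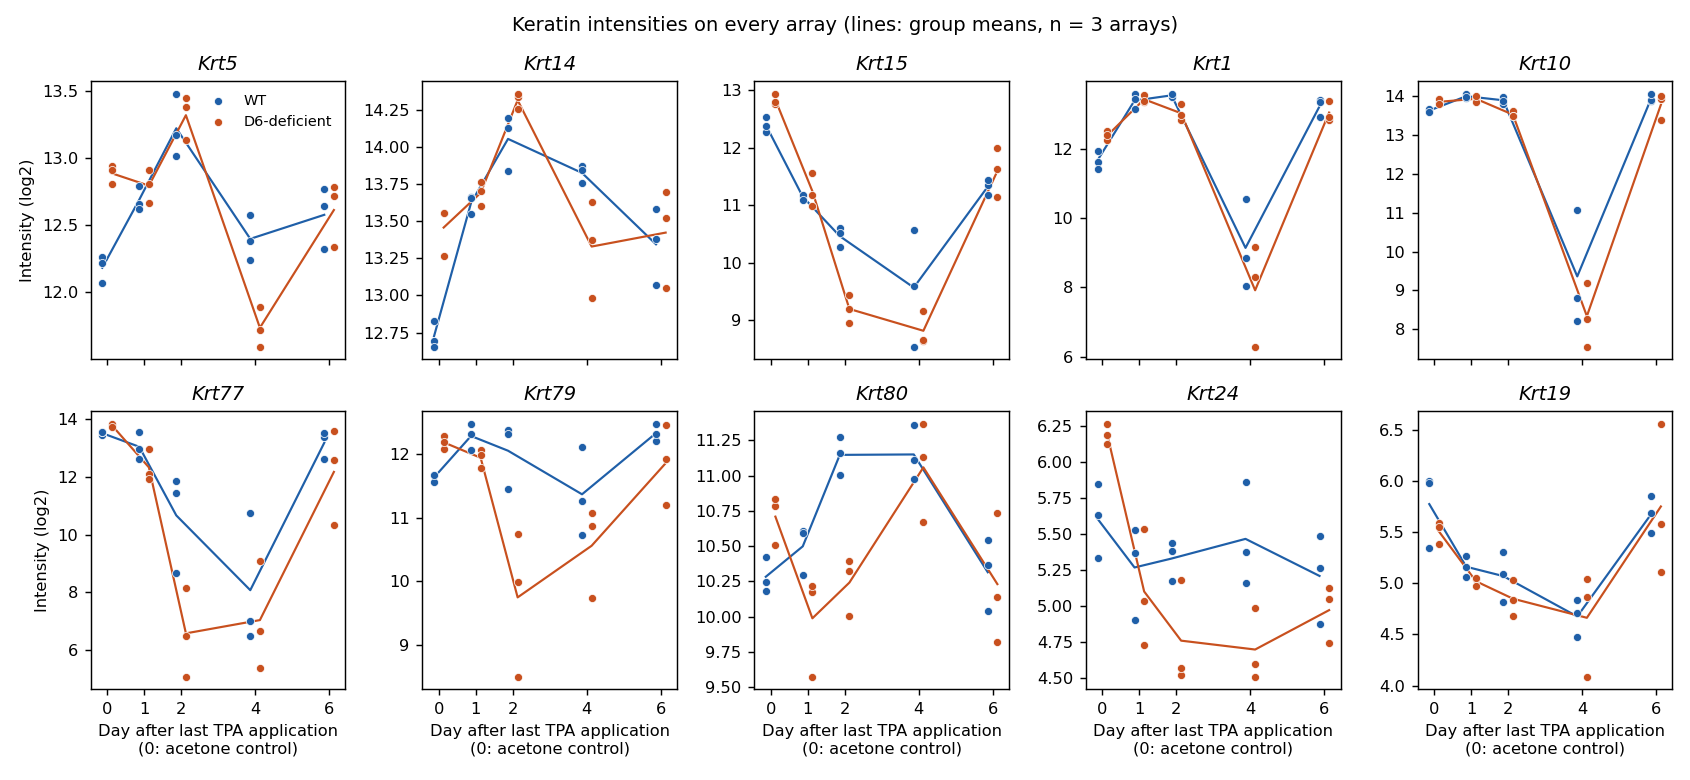
Log2 intensity of the brightest probe set of each keratin (vertical axis) against day (horizontal axis, with day 0 the acetone controls), for every WT array (blue) and D6-deficient array (orange), with lines through the group means of 3 arrays. Krt1, Krt10 and Krt77 drop at day 4 to between 5.38 and 11.07 and stand at 10.33 or more at day 6, whereas Krt14 stays between 12.66 and 14.36 throughout.

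The suprabasal pair and Krt77 fell at day 4 in both genotypes. Krt10, the type I keratin of the spinous layers, was 19.3-fold lower than in controls in WT skin and 45.8-fold lower in D6-deficient skin, and its type II partner Krt1 was 5.75-fold and 21.9-fold lower. Krt77, a type II keratin of suprabasal epidermis, was 43.6-fold lower in WT and also fell in D6-deficient skin, where 1 array was under the array medians and no fold is given. At the same day Krt14 was 2.14-fold above its control in WT skin. In bulk skin, fewer cells of a type and less RNA per cell cannot be told apart.

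Krt10 was at 13.63, 13.66 and 13.59 on the WT control arrays and at 8.80, 11.07 and 8.21 at day 4. In D6-deficient skin the values were 13.83, 13.93 and 13.80 in controls and 7.55, 9.18 and 8.28 at day 4. Every day 4 array was thus below every control array of its genotype, and WT replicate 2 was the highest of the day 4 arrays. The log2 change was -4.27 in WT (SE 0.42, adjusted p = 2.7e-08) and -5.52 in D6-deficient skin (SE 0.42, adjusted p = 3.45e-10). Fits without 1 array gave -5.12 to -3.69 and -5.94 to -5.12, all past the test. Before that day Krt10 had moved little, with WT changes of 0.37 at day 1 and 0.27 at day 2 and D6-deficient changes of 0.08 and -0.33, none of which passed. The fit gives a gene 1 spread over all groups, and for Krt10 that spread included the wide day 4 arrays (SD 1.51 in WT). The WT arrays of days 1 and 2 nonetheless all lay above the WT controls, and the D6-deficient arrays of day 2, at 13.48 to 13.61, all lay below the D6-deficient controls.

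Krt1, the type II chain of that pair, was at 11.94, 11.62 and 11.42 in WT controls and 12.49, 12.23 and 12.38 in D6-deficient controls. It rose early in WT, to 13.57, 13.15 and 13.43 at day 1 and 13.54, 13.48 and 13.58 at day 2. These arrays all lay above the controls, with log2 increases of 1.72 at day 1 (SE 0.48, adjusted p = 0.0109) and 1.87 at day 2 (SE 0.48, adjusted p = 0.00543). The D6-deficient increases, 1.05 at day 1 and 0.65 at day 2, did not pass (adjusted p = 0.0928 and 0.316), although their arrays, at 13.54, 13.35 and 13.37 and at 13.28, 12.81 and 12.95, also lay above the controls. At day 4 Krt1 was at 8.84, 10.54 and 8.03 in WT and at 6.29, 9.15 and 8.30 in D6-deficient skin, below every other array of the series. The changes from control were -2.52 (SE 0.48, adjusted p = 0.000196) and -4.46 (SE 0.48, adjusted p = 9.1e-08). Without D6-deficient day 4 replicate 1 the latter was -3.64 and without replicate 2 -5.07, and the WT change ran from -3.23 without replicate 2 to -1.97 without replicate 3, each past the test.

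Krt77 had already fallen at day 2. In WT controls it was at 13.46, 13.55 and 13.55, and at day 2 at 11.46, 8.67 and 11.88. In D6-deficient skin it was at 13.79, 13.85 and 13.74 in controls and at 8.16, 5.08 and 6.50 at day 2. All 3 D6-deficient day 2 arrays were below all 3 WT day 2 arrays, and the lowest of them was under the array medians, where the values used hold no detection calls. The log2 change at day 2 was -2.85 in WT (SE 1.00, adjusted p = 0.0364) and -7.22 in D6-deficient skin (SE 1.00, adjusted p = 4.08e-06), the latter -8.00 without replicate 1 and -6.47 without replicate 2. The WT change did not pass without day 2 replicate 2 (-1.85) or without any 1 of the 3 day 0 arrays (-2.88 to -2.84). At day 4 it was at 7.001, 10.74 and 6.49 in WT (change -5.45, SE 1.00, adjusted p = 0.000122) and at 5.38, 9.08 and 6.65 in D6-deficient skin (change -6.76, SE 1.00, adjusted p = 7.26e-06). The D6-deficient array at 5.38 was again under the array medians, so that the size of this change is uncertain. Without that array, replicate 1, the change was -5.93, and without replicate 2 -7.78. Without replicate 3 the WT change was -4.65, and all these passed.

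Krt14, the type I keratin of the basal layer, rose in WT skin. Its brightest probe set, whose suffix marks probes that may also match other transcripts, was at 12.69, 12.66 and 12.83 in WT controls, at 13.66, 13.55 and 13.66 at day 1, at 14.13, 14.20 and 13.84 at day 2 and at 13.87, 13.84 and 13.76 at day 4. No array of days 1 to 4 reached down to the controls. The increases were 0.90 at day 1 (SE 0.16, adjusted p = 0.000185), 1.33 at day 2 (SE 0.16, adjusted p = 1.15e-06) and 1.10 at day 4 (SE 0.16, adjusted p = 5.57e-06). D6-deficient controls were already at 13.55, 13.26 and 13.55, day 2 arrays at 14.25, 14.33 and 14.36, and day 4 arrays at 12.98, 13.38 and 13.63. There the day 1 change of 0.23 did not pass. The day 2 increase of 0.86 passed (SE 0.16, adjusted p = 0.000121) and the day 4 change of -0.13 did not (adjusted p = 0.545).

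Of the other Krt14 probe sets, the second brightest gave WT increases of 1.06, 1.65 and 1.30 at days 1, 2 and 4, each past the test, and the third, dimmer one 1.08, 1.40 and 1.24, likewise. In D6-deficient skin the second had group means of 12.86 in controls and 13.30, 14.04 and 12.73 at days 1, 2 and 4. Those of the third were 6.63 in controls and 7.47, 7.93 and 6.61. The fourth probe set is shared with Krt17 and was dim, between 3.88 and 5.16 on all arrays. It rose only at day 2 among the 4 days, by 0.68 in WT (adjusted p = 0.00911) and 0.69 in D6-deficient skin (adjusted p = 0.0053).

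Krt5, the type II partner of Krt14, was at 12.26, 12.22 and 12.07 in WT controls, at 13.17, 13.48 and 13.01 at day 2 and at 12.38, 12.57 and 12.24 at day 4. In D6-deficient skin it was at 12.94, 12.81 and 12.91 in controls, 13.13, 13.38 and 13.44 at day 2, and 11.72, 11.60 and 11.89 at day 4. The D6-deficient day 4 arrays were the lowest 3 of the series. At day 1 its WT arrays, at 12.79, 12.65 and 12.62, were above the controls by 0.51 (SE 0.14, adjusted p = 0.00863), and the D6-deficient change was -0.09. Krt5 rose at day 2 in WT by 1.04 (SE 0.14, adjusted p = 5.77e-06) and in D6-deficient skin by 0.43 (SE 0.14, adjusted p = 0.0148), the latter lost without control replicate 2 (0.39), day 2 replicate 2 (0.40) or day 2 replicate 3 (0.37). At day 4 it decreased by 1.15 in the mutants (SE 0.14, adjusted p = 3.95e-07), and the WT change of 0.22 did not pass (adjusted p = 0.226).

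Krt15 fell on every day in both genotypes. It was at 12.28, 12.53 and 12.38 in WT controls, 11.17, 11.18 and 11.10 at day 1, and 10.60, 10.26 and 10.52 at day 2. By day 4 the WT arrays stood at 9.60, 10.56 and 8.54. D6-deficient controls were at 12.94, 12.76 and 12.80, day 1 arrays at 10.99, 11.18 and 11.55, day 2 arrays at 9.19, 8.95 and 9.44, and day 4 arrays at 8.63, 8.66 and 9.15. Each treated group lay wholly below its controls. The log2 changes at days 1, 2 and 4 were -1.25, -1.94 and -2.83 in WT (SE 0.29 each, adjusted p = 0.00312, 3.33e-05 and 7.19e-08) and -1.59, -3.64 and -4.02 in D6-deficient skin (SE 0.29 each, adjusted p = 0.00019, 2.37e-09 and 2.14e-10). At day 4, 39.1% of all tested probe sets passed in WT (21.8% lower) and 41.1% in D6-deficient skin (22.4% lower). Of 11 genes listed for the follicle stem cell compartment and follicle opening, 6 fell and 1 rose in WT at that day and 9 fell and 1 rose in D6-deficient skin. The list included Cd34, Tcf3 and Tcf4, and how far its genes are particular to the follicle was not tested. Of the 11, Lgr6, a receptor of follicle stem cells, was at -1.95 in WT (adjusted p = 3e-08) and -3.02 in D6-deficient skin (adjusted p = 2.76e-11), and Lrig1, a growth factor receptor inhibitor of the upper follicle, was at -1.65 and -1.85 (adjusted p = 2.99e-09 and 2.91e-10).

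Krt79, a type II keratin of the follicle opening, fell in D6-deficient skin, and the genotypes are compared directly with the day 2 contrast. Its WT values were 11.66, 11.56 and 11.66 in controls, 12.38, 11.45 and 12.32 at day 2, and 11.25, 12.11 and 10.73 at day 4. D6-deficient controls were at 12.28, 12.08 and 12.19, day 2 arrays at 10.75, 8.50 and 9.99, and day 4 arrays at 9.74, 10.86 and 11.07. The D6-deficient changes were -2.43 at day 2 (SE 0.41, adjusted p = 5.71e-05, and -1.81 without replicate 2, still past the test) and -1.62 at day 4 (SE 0.41, adjusted p = 0.00279), and the WT changes 0.42 and -0.26 (adjusted p = 0.498 and 0.648). Of the 6 sebaceous gland markers tested, 5 were lower and none higher in D6-deficient skin at days 1, 2 and 4. Of all tested probe sets, 36.3%, 38.1% and 41.1% passed there at those days. Neither Krt79 nor Krt77 passed in D6-deficient skin at day 1. In WT skin 4 of the 6 markers were lower at days 1, 2 and 4 (24%, 26.1% and 39.1% of all tested passed), and Krt79 passed at none of them. The summed level of the markers was 14.67 to 14.79 in D6-deficient controls and 13.78 to 13.90 at day 2, and their part in the result was not tested.

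Krt80, a type II keratin of differentiating epithelia, was at 10.18, 10.25 and 10.42 in WT controls, 11.28, 11.01 and 11.16 at day 2 and 11.11, 10.98 and 11.36 at day 4. The WT arrays of days 2 and 4 were above all controls, with increases of 0.87 at both days (SE 0.21 each, adjusted p = 0.00303 and 0.0017). In D6-deficient skin it went from 10.78, 10.84 and 10.51 in controls to 10.17, 9.57 and 10.22 at day 1 and 10.39, 10.01 and 10.32 at day 2. By day 4 it was at 10.67, 11.14 and 11.37. It fell there at day 1 by 0.72 (SE 0.21, adjusted p = 0.00817), a call lost without day 1 replicate 2 (-0.51). Neither the change of -0.47 at day 2 nor that of 0.35 at day 4 passed.

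Krt24 and Krt19, both type I keratins, gave values near or under the array medians, between 4.51 and 6.26 and between 4.09 and 6.56. All treated D6-deficient arrays of Krt24 and all day 4 arrays of Krt19 were under those medians, so that the sizes of their changes are uncertain. Krt24 was at 6.12, 6.19 and 6.26 in D6-deficient controls, above all its other arrays. Treated D6-deficient arrays lay between 4.51 and 5.54 and WT arrays of all days between 4.87 and 5.86. The D6-deficient changes at days 1, 2, 4 and 6 were -1.09, -1.43, -1.50 and -1.22 (SE 0.22 each, the largest adjusted p = 0.000485). None of the WT changes, between -0.40 and -0.14, passed. Krt19, a keratin of the follicle bulge and of simple epithelia, was lower at day 4, with a change of -1.10 in WT (SE 0.26, adjusted p = 0.00139) and -0.84 in D6-deficient skin (SE 0.26, adjusted p = 0.0101). Its WT day 4 arrays, at 4.71, 4.47 and 4.84, were all below the control arrays at 5.34, 6.00 and 5.98. In D6-deficient skin the controls were at 5.59, 5.55 and 5.38 and day 4 at 4.86, 5.04 and 4.09, again with no overlap. The D6-deficient fall did not pass without day 4 replicate 3 (-0.56). At day 2 the Krt19 changes were -0.70 in WT and -0.66 in D6-deficient skin (adjusted p = 0.0444 and 0.0452), calls at the edge of the threshold. The WT one was lost without control replicate 2 (-0.59) or 3 (-0.60) or day 2 replicate 1 (-0.58) or 2 (-0.72), and the D6-deficient one without any 1 of its 6 arrays (-0.75 to -0.57). Without WT control replicate 1 the WT day 1 change also passed, at -0.83 in place of -0.61.

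Counted by the brightest probe set, 3 of the 10 keratins were higher and 1 lower in WT at day 1, where 24% of all tested probe sets passed in either direction. At day 2 the WT counts were 4 higher and 3 lower (26.1% of all tested), and at day 4 2 higher and 5 lower (39.1%, and 21.8% lower), with a median change of the 10 of -0.68 beside 0.01 for all tested. D6-deficient skin had 0 higher and 3 lower at day 1, not above the 36.3% of all tested, 2 higher and 5 lower at day 2 (38.1%), and 0 higher and 8 lower at day 4 (41.1%, and 22.4% lower), with a median of -1.56 beside 0.01. Comparisons of a genotype shared its 3 control arrays.

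**Figure D2:**
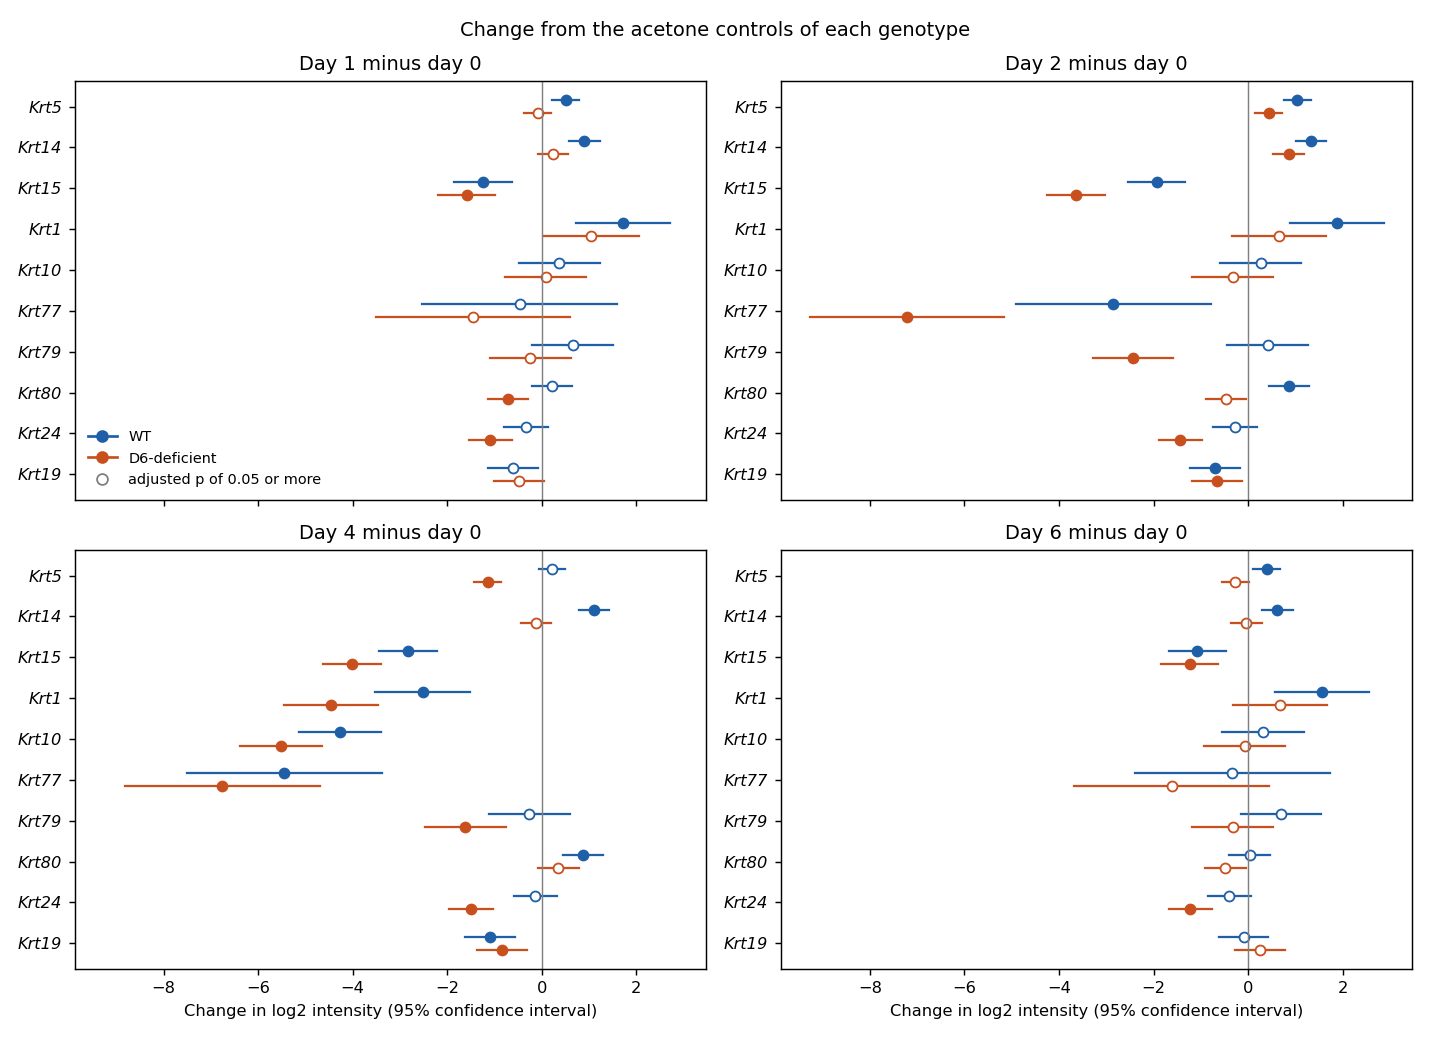
Change in log2 intensity from the controls of the same genotype (horizontal axis) for each keratin at days 1, 2, 4 and 6, with 95% confidence intervals of the fit, in WT (blue) and D6-deficient (orange) skin. Filled points passed at an adjusted p under 0.05, and at day 4 Krt15, Krt1, Krt10, Krt77 and Krt19 are filled and to the left of 0 in both genotypes.

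Within the basal and the suprabasal pair the chains did not move by equal amounts. At day 4 the change of Krt5 minus that of Krt14 averaged -0.88 ± 0.14 (SD, n = 3) in WT skin and -1.02 ± 0.29 in the mutants. Krt1 minus Krt10 was 1.35 ± 0.17 in WT at day 1, 1.61 ± 0.08 at day 2 and 1.74 ± 0.29 at day 4, with no array of these days below 1.16. In D6-deficient skin it was 0.97 ± 0.12, 0.97 ± 0.17 and 1.06 ± 0.73. Krt14 minus Krt10, basal against suprabasal, was 1.06 ± 0.22 and 1.19 ± 0.13 at day 2 and 5.37 ± 1.48 and 5.39 ± 0.69 at day 4, in WT and D6-deficient skin in that order. These differences were described and not tested. Krt10 stood at 13.59 to 13.66 in WT controls, where 14.98 was the highest value of any array. Values near the highest intensities may be compressed, so that the sizes of Krt1 minus Krt10 are uncertain.

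Other genes of the epidermal programme did not all follow Krt1 and Krt10. Their counts stand beside 26.1% of all tested probe sets passed in WT at day 2 and 39.1% at day 4, and 38.1% and 41.1% in D6-deficient skin. Of 11 tested granular layer genes, 9 were higher and 0 lower in WT at day 2 and 4 higher and 2 lower at day 4, whereas in D6-deficient skin 3 were higher and 1 lower at day 2 and 1 higher and 7 lower at day 4. Lor, the main protein of the cornified envelope, was lower at day 4, with a change of -2.36 in WT (adjusted p = 0.000324) and -4.38 in D6-deficient skin (adjusted p = 8.58e-08). Its dimmer probe set gave smaller falls, -1.77 in WT and -2.97 in D6-deficient skin. Klk7, a protease of the shedding cell layers, rose at the same day by 2.29 (adjusted p = 1.86e-09) and 1.33 (adjusted p = 3.7e-06). Casp14, a protease of cornification, rose in WT by 4.15 at day 2 (adjusted p = 7.45e-11) and 1.84 at day 4 (adjusted p = 4.41e-06).

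Among 10 genes of the desmosome plaque and envelope scaffold, 9 were higher in WT at day 2 and 7 were lower in D6-deficient skin at day 4. Tgm1, the transglutaminase that cross-links the envelope, rose in both genotypes at day 4, by 2.29 (adjusted p = 4.36e-08) and 2.12 (adjusted p = 9.79e-08). Perp and Dsp, both desmosome proteins, were lower in D6-deficient skin, at -0.96 (adjusted p = 1.25e-06) and -0.86 (adjusted p = 3.75e-06). Of 15 transcription factors and Notch genes that govern differentiation, 3 were higher and 4 lower at day 4 in WT, a share near that of all tested, and in the mutants 2 were higher and 11 lower. Gata3, a factor of epidermal and follicle differentiation, fell there by 2.78 (adjusted p = 1.83e-08), and Grhl3 rose in WT by 1.76 (adjusted p = 1.25e-07). Of 11 basal attachment genes, 4 were higher and 3 lower in WT at day 4 and 2 higher and 6 lower in D6-deficient skin, where Col17a1, the collagen of hemidesmosomes, fell by 1.93 (adjusted p = 4.37e-08). All 4 stress keratins were higher at days 1, 2, 4 and 6 in both genotypes. Of 4 simple epithelial keratins, 1 was higher and 1 lower at day 4 in each genotype, likewise near it.

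Markers of other cells moved at day 4 as well, where 39.1% of all tested probe sets passed in WT and 41.1% in D6-deficient skin. The summed level of 12 leukocyte markers, which include S100a8 and S100a9 that keratinocytes also make, lay between 14.91 and 15.10 on WT control arrays and between 16.20 and 16.40 at day 4. In D6-deficient skin it lay between 14.75 and 15.36 in controls and between 16.25 and 16.29 at day 4. Of them 7 were higher and 2 lower in WT and 8 higher and 2 lower in D6-deficient skin. All 8 muscle markers were lower at each day in both genotypes. Of 7 fibroblast markers 1 was higher and 3 lower at day 4 in each genotype, and of 6 adipocyte markers 4 were lower in WT, while the D6-deficient changes, between -0.42 and 1.05, did not pass. Their part in the keratin result was not tested.

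The suprabasal keratins, Krt15 and Krt19 rose again between day 4 and day 6, comparisons that share the day 4 arrays with those against control. Krt10 was at 13.89, 13.91 and 14.04 in WT and 13.94, 13.38 and 14.01 in D6-deficient skin, above every day 4 array. From day 4 it rose by 4.58 (SE 0.42, adjusted p = 2.63e-08) and 5.44 (SE 0.42, adjusted p = 1.06e-09). Krt1, at 12.91, 13.39 and 13.36 in WT and 13.37, 12.83 and 12.91 in D6-deficient skin, rose by 4.08 (SE 0.48, adjusted p = 1.1e-06) and 5.12 (SE 0.48, adjusted p = 2.01e-08). Krt77 rose by 5.11 (SE 1.00, adjusted p = 0.000533) and 5.14 (SE 1.00, adjusted p = 0.000326), with D6-deficient replicate 2 the lowest at 10.33 beside 12.59 and 13.62. Without 1 array these rises ran from 4.01 to 5.44 for Krt10, 3.53 to 4.78 for Krt1 and 4.32 to 6.44 for Krt77 in WT, and from 4.31 to 5.74 for Krt1 and 4.31 to 6.16 for Krt77 in the mutants, all past the test. Krt15 rose by 1.76 and 2.78 (SE 0.29 each, adjusted p = 0.000104 and 1.17e-07) and Krt19 by 1.00 and 1.09 (SE 0.26 each, adjusted p = 0.00586 and 0.00208).

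By count, 5 keratins were higher and 2 lower in WT at day 6 than at day 4 (22.1% of all tested passed) and 7 higher and 1 lower in D6-deficient skin (31.4%). Krt80 was lower in both genotypes, at -0.84 and -0.83 (SE 0.21 each, adjusted p = 0.0046 and 0.00338), although the D6-deficient arrays of the 2 days overlapped. Krt14 was lower in WT, at -0.48 (SE 0.16, adjusted p = 0.0282), a call lost without any 1 of 5 of the 6 arrays (-0.51 to -0.34), day 6 replicate 2 being the exception. Krt5 rose in D6-deficient skin by 0.88 (SE 0.14, adjusted p = 2.84e-05). Krt79 rose there by 1.30 (SE 0.41, adjusted p = 0.0194), which did not pass without day 4 replicate 1 (0.89) or day 6 replicate 1 (1.26) or 3 (1.00). The WT change passed only without day 4 replicate 2 (1.33). Hair shaft keratins separated the same days, 13 of 17 being higher at day 6 than day 4 in WT and 17 of 17 in D6-deficient skin, as did all 5 melanocyte markers in both genotypes. Their part in the result was not tested.

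Against control, day 6 in WT had 3 keratins higher and 1 lower (22.1% of all tested), and D6-deficient skin 0 higher and 2 lower, not above the 31.7% of all tested. The WT increases were 1.56 in Krt1 (SE 0.48, adjusted p = 0.0225), 0.62 in Krt14 (SE 0.16, adjusted p = 0.00593) and 0.39 in Krt5 (SE 0.14, adjusted p = 0.0412). Without WT day 6 replicate 2 no keratin passed, at 1.47 for Krt1, 0.50 for Krt14, 0.30 for Krt5 and -1.002 for Krt15. Krt1 was also lost without control replicate 2 (1.54) or 3 (1.44) or day 6 replicate 3 (1.49), and Krt5 without any control array (0.34 to 0.43) or day 6 replicate 3 (0.36). Krt15 had not returned in either genotype, at 11.36, 11.18 and 11.43 in WT (change -1.07, SE 0.29, adjusted p = 0.0106) and 11.14, 12.00 and 11.64 in D6-deficient skin (change -1.24, SE 0.29, adjusted p = 0.00246), and Krt24 was the other D6-deficient gene. Krt80 passed there only without day 6 replicate 3, at -0.73.

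The genotypes already differed in the control skin. Krt5 was higher in D6-deficient than in WT controls by 0.70 (SE 0.14, adjusted p = 0.00987) and Krt14 by 0.73 (SE 0.16, adjusted p = 0.0174), 2 of the 10 keratins where 1.57% of all tested probe sets passed. In 9 of the 10, all but Krt19, the 3 D6-deficient arrays lay above the 3 WT arrays, and 21.6% of all tested probe sets did not overlap in 1 direction or the other. The second Krt14 probe set gave 0.76 (SE 0.18, adjusted p = 0.0273), the third 0.51 (adjusted p = 0.452) and the one shared with Krt17 -0.02. The Krt5 call was lost without D6-deficient replicate 1 (0.68) or WT replicate 3 (0.65), and the Krt14 call without WT replicate 1 (0.71) or 2 (0.70) or D6-deficient replicate 1 (0.68) or 3 (0.68). The summed level of the 4 stress keratins was 11.38 to 12.86 in the D6-deficient controls and 10.36 to 10.94 in the WT controls. Other epidermal lists were higher there without overlap as well, the granular layer genes at 15.25 to 15.35 against 14.63 to 14.80, the desmosome and scaffold genes at 14.74 to 14.80 against 14.26 to 14.40, the regulators at 13.97 to 14.03 against 13.52 to 13.67 and the basal attachment genes at 13.40 to 13.59 against 13.18 to 13.23. Trp63, the transcription factor of basal cells, was higher there too, by 0.71 (adjusted p = 0.0249). The part of these genes in the result was not tested.

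On the same day after TPA, the genotype differences that passed were mainly at day 2. The median difference of the 10 keratins, D6-deficient minus WT, was -0.54 at day 2 and -0.76 at day 4. The differences ran from -4.09 to 0.26 at day 2 and from -1.22 to -0.01 at day 4. Those that passed at day 2 were -1.27 for Krt15 (SE 0.29, adjusted p = 0.0108), -4.09 for Krt77 (SE 1.00, adjusted p = 0.0151), -2.30 for Krt79 (SE 0.41, adjusted p = 0.00107) and -0.91 for Krt80 (SE 0.21, adjusted p = 0.00932). These were 4 of the 10, all lower, where 4.45% of all tested passed and 1.99% were lower, and in each the 3 D6-deficient arrays lay below the 3 WT arrays. Without D6-deficient replicate 2 only Krt79 passed, at -1.68, with Krt15 at -1.15, Krt77 at -3.34 and Krt80 at -0.79, and without WT replicate 1 likewise, at -1.20, -3.70 and -0.84. Krt77 was also lost without WT replicate 3 (-3.49) or D6-deficient replicate 3 (-4.05). Krt1 and Krt10, at -0.52 (95% confidence interval -1.51 to 0.48) and -0.37 (-1.23 to 0.49), did not pass although the D6-deficient arrays lay below the WT arrays. Counting all members, 7 of the 10 keratins had groups that did not overlap, 6 lower and Krt14 higher, where 22.3% of all tested did not overlap.

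At day 4 Krt5 differed by -0.66, D6-deficient minus WT (SE 0.14, adjusted p = 0.0222), 1 of the 10 where 0.513% of all tested passed. This call was lost without WT replicate 1 (-0.67) or 2 (-0.57) or D6-deficient replicate 1 (-0.65) or 2 (-0.59). Without WT replicate 3, Krt15 passed too, at -1.27 in place of -0.75. Krt10, Krt1 and Krt77 differed by -1.02 (95% confidence interval -1.88 to -0.16), -1.22 (-2.22 to -0.23) and -1.04 (-3.10 to 1.02), and their arrays overlapped between the genotypes. None passed in any fit without 1 array, which gave -1.60 to -0.17 for Krt10, -1.84 to -0.41 for Krt1 and -2.06 to 0.29 for Krt77. At days 1 and 6 limma passed 0 of the 10, where 0.0555% and 0.125% of all tested passed. The unadjusted p was under 0.05 for 1 keratin at day 1, Krt80 at -0.51, and for none at day 6.

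Set against each genotype's own controls, the response was smaller or more negative in D6-deficient skin for 4 keratins at day 2 and 3 at day 4, all in that direction. Of all tested, 5.4% and 0.608% passed, 2.62% and 0.416% in that direction. At day 2 these were Krt79 at -2.85 (SE 0.59, adjusted p = 0.00402; -2.23 without D6-deficient day 2 replicate 2), Krt80 at -1.33 (SE 0.29, adjusted p = 0.00665), Krt15 at -1.70 (SE 0.42, adjusted p = 0.0152) and Krt24 at -1.16 (SE 0.31, adjusted p = 0.0291). Krt77, at -4.36, had the widest error and did not pass (SE 1.41, adjusted p = 0.0738), but it did without WT day 2 replicate 2 (-5.36) or D6-deficient day 2 replicate 1 (-5.15). Krt15 was lost without D6-deficient day 2 replicate 2 (-1.59), and Krt24 without any 1 of 8 of the 12 arrays, at -1.19 to -1.02. Krt5 passed only without WT day 2 replicate 3, at -0.71.

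At day 4 the difference passed for Krt5 at -1.36 (SE 0.19, adjusted p = 0.00183), for Krt14 at -1.23 (SE 0.22, adjusted p = 0.012) and for Krt24 at -1.36 (SE 0.31, adjusted p = 0.0458). For Krt5, Krt14 and Krt24 in that order, the same-day differences at day 4 were -0.66, -0.50 and -0.77 and the control differences, which this contrast subtracts, 0.70, 0.73 and 0.59. The other Krt14 probe sets gave -1.43 (adjusted p = 0.00982), -1.26 (adjusted p = 0.188) and, for the one shared with Krt17, -0.07. Krt24 was lost without any 1 of 10 of the 12 arrays, at -1.48 to -1.16, and without WT day 4 replicate 3 Krt15 passed at -1.70. For Krt10 the difference was -1.25 (95% confidence interval -2.47 to -0.03) and for Krt1 -1.93 (-3.34 to -0.52), neither past adjustment (adjusted p = 0.438 and 0.23). Without 1 array they ran from -1.82 to -0.40 and from -2.55 to -1.12. At days 1 and 6 limma passed 0 of the 10 (0.0194% and 0.025% of all tested), although the unadjusted p was under 0.05 for 4 keratins, Krt5, Krt14, Krt80 and Krt24, at day 1 and for 3, Krt5, Krt14 and Krt24, at day 6.

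**Figure D3:**
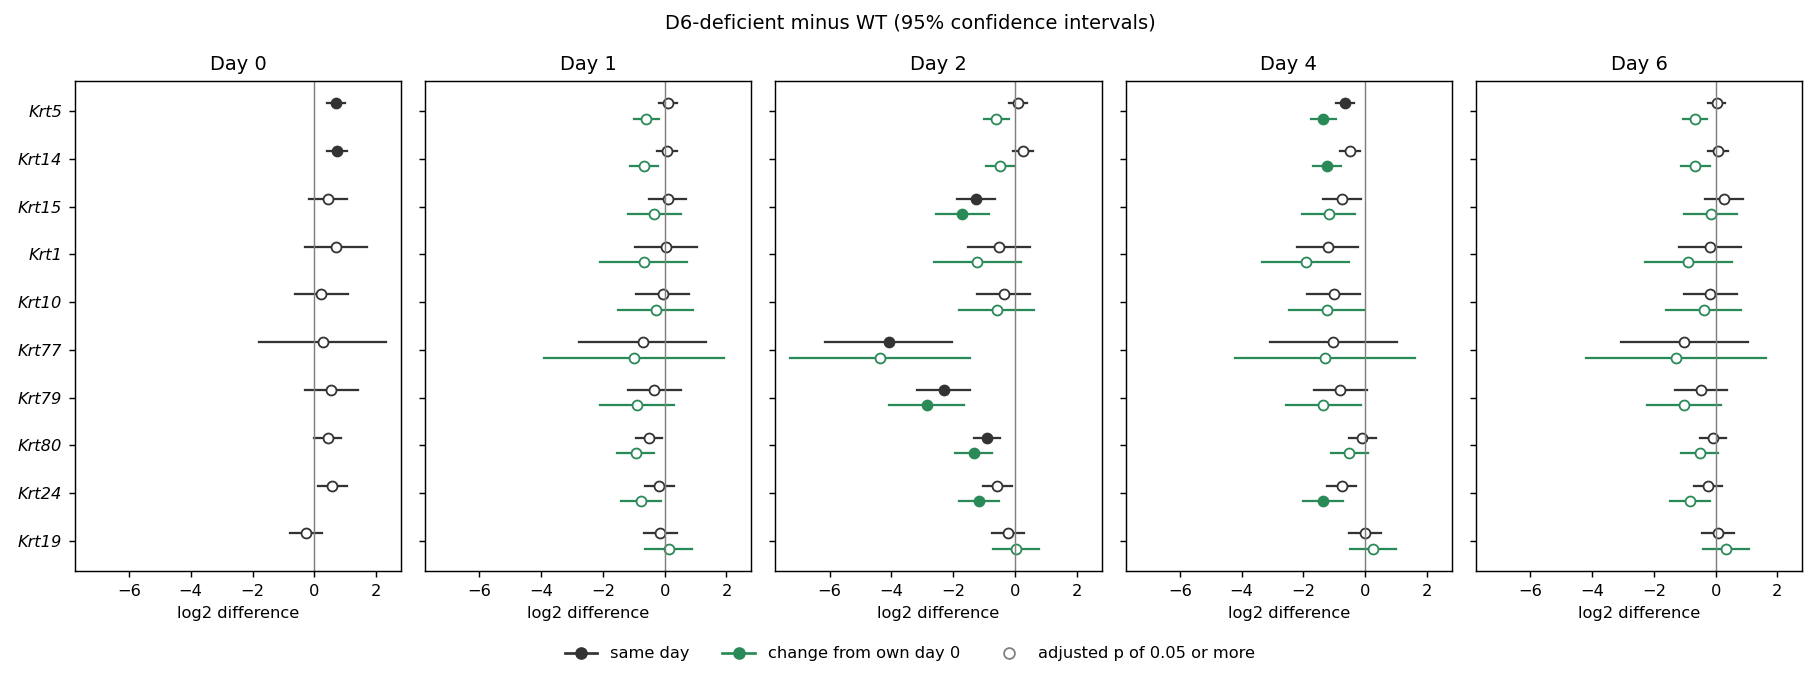
Difference in log2 intensity, D6-deficient minus WT (horizontal axis), for each keratin at days 0, 1, 2, 4 and 6, on the same day (black) and as the change from each genotype's own controls (green), with 95% confidence intervals of the fit. Filled points passed at an adjusted p under 0.05, 4 keratins in either measure at day 2 and Krt5 in both at day 4.

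The same contrast, which subtracts the control differences of these lists too, ran the same way in related genes where it passed. Of 11 granular layer genes 5 were lower at day 2 and 4 at day 4, with median differences of -1.34 and -1.57, of 15 regulators 3 and 0, of 10 desmosome and scaffold genes 3 and 2, and of 11 basal attachment genes 1 and 3, and none of these lists had a gene higher. Casp14 was at -2.06 at day 4 (adjusted p = 0.00982), Grhl3, a regulator of barrier formation, at -1.68 at day 2 (adjusted p = 0.000479), and Trp63 at -1.03 at day 4 (adjusted p = 0.0352). The all-gene medians were -0.01 and 0.00, and 5.4% of all tested probe sets passed at day 2 (2.62% lower) and 0.608% at day 4 (0.416% lower). Leukocyte markers ran the other way at day 2, 4 of 12 being higher and none lower, and 2 of 6 sebaceous markers were lower, the lipid enzymes Elovl3 at -4.78 (adjusted p = 0.00203) and Far2 at -4.57 (adjusted p = 0.00383). Their part in the result was not tested.

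**Figure D4:**
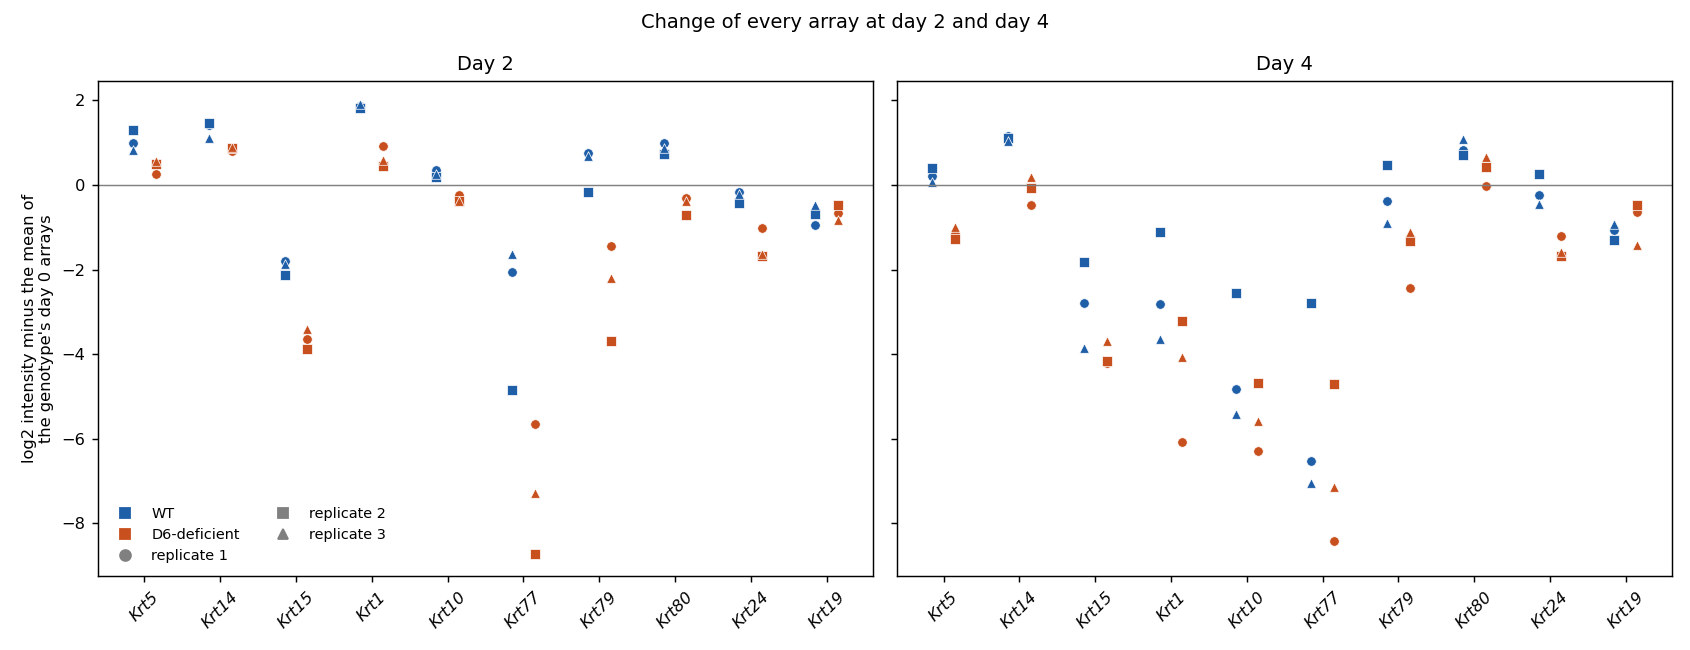
Log2 intensity of each array minus the mean of its genotype's day 0 arrays (vertical axis) for the 10 keratins at day 2 and day 4, with symbols for the replicates. At day 4 WT replicate 2 is the least lowered array for Krt1 (-1.12), Krt10 (-2.56) and Krt77 (-2.78), and at day 2 WT replicate 2 is the most lowered WT array for Krt77 (-4.85).

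At day 4 WT replicate 2 deviated from its group means by 0.847 on average over the 10 keratins, more than any other array. WT replicates 1 and 3 were at 0.229 and 0.641. The median deviation over all tested probe sets, a different measure, was 0.0912 in WT replicate 2 and 0.0887 and 0.102 in replicates 1 and 3. WT replicate 2 had the highest WT day 4 value of Krt15, Krt1, Krt10, Krt77 and Krt79. In D6-deficient skin replicate 1 had the lowest day 4 value of Krt1, Krt10, Krt77 and Krt79. Left out of the fit, WT replicate 2 moved the WT day 4 change of Krt10 to -5.12, of Krt1 to -3.23 and of Krt77 to -6.78, each still past the test.

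Over the 30 arrays Krt1 and Krt10 correlated at r = 0.96 (rho = 0.77), and at 0.50 over the 24 arrays without day 4. Krt5 and Krt14 correlated at 0.72 and at 0.94 without day 4, Krt15 and Krt77 at 0.89 and 0.84, and Krt77 and Krt79 at 0.86 and 0.88. Arrays of a group share their treatment, so these values describe the time course and carry no test. Deviations from the group means correlated at 0.88 for Krt1 with Krt10 and 0.84 for Krt77 with Krt79.

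The probe sets whose pattern over the 30 arrays was most like that of Krt10 were Cd109 (r = 0.98, and 0.40 without day 4), Capns2 (0.98 and 0.41), Lor (its dimmer probe set, 0.97 and 0.86), Colec11 (0.96 and -0.16) and Ephb6 (0.95 and 0.46). For Krt15 they were Trim2 (0.97), Ctf1 (0.96), Itpr3 (0.96), Tecr (0.95) and Ppm1b (0.95), with 0.94 to 0.96 without day 4. Slc25a48 (0.91), 2310042E22Rik (0.90), Lypd3 (0.89), Ltb4r2 (0.89) and Sdc1 (0.88) were nearest to Krt14. For Krt19 the nearest were Ntrk3 (0.85), Slc9a2 (0.82), 4833420G11Rik (0.82), Eif1ax (0.82) and Arhgap20 (0.82).

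Ordered by group mean, Krt10 stood highest in WT day 1 (13.998) and lowest in D6-deficient day 4 (8.34), and the only neighbours in that order whose arrays did not overlap were D6-deficient day 2 (13.52) and WT day 4 (9.36). Krt1 ran from WT day 2 (13.53) to D6-deficient day 4 (7.91), with 3 of 9 steps between neighbours free of overlap, both those around WT control (11.66) and that from D6-deficient day 2 (13.02) to D6-deficient control (12.37). Krt15 ran from D6-deficient control (12.83) to D6-deficient day 4 (8.81), also with 3. Krt77 was highest in D6-deficient control (13.79) and lowest in D6-deficient day 2 (6.58), and Krt79 lay between 12.33 in WT day 6 and 9.75 in D6-deficient day 2. Krt5 and Krt14 were highest in D6-deficient day 2, at 13.32 and 14.31, and lowest in D6-deficient day 4 (11.74) and in WT control (12.72). Krt80 ran from 11.15 in WT day 4 to 9.99 in D6-deficient day 1, with no neighbours free of overlap, as in Krt79.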

How the data were processed

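RNA of whole back skin had been hybridised to 30 Affymetrix Mouse430_2 arrays, 3 for each of 10 groups of genotype and day. The deposited intensities were processed by the authors with RMA in GeneSpring GX, which subtracts background, quantile normalizes the arrays and summarizes the probes of a probe set, and were given on a linear scale. The RMA version is not given in the sources used here, and a second deposited text held no measurements. RMA forces equal distributions on the arrays, so a shift of most genes at once would not be seen, and values near the highest intensities may be compressed.

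The deposited values were taken to log2, 64 control probe sets were removed and the lowest 20% by mean were left out, which kept 36029 probe sets. A linear model with 1 mean per group was fitted to all arrays with limma 3.58.1 in R 4.3.3, and p-values were adjusted by Benjamini-Hochberg over all tested probe sets, with 0.05 as the threshold. SE and 95% confidence intervals come from this fit, with 1 moderated spread per probe set, and the number of arrays limits the precision. In simulated data with 100 probe sets changed 3-fold and 100 changed 6-fold, the WT day 4 comparison recovered 97% and 100%, and the relative day 4 comparison 91% and 96%. These rates describe the changed probe sets and do not carry over to members with a wide spread. Krt10 and Krt77 had an SD of 1.51 and 2.32 in WT at day 4.

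The members and gene lists were chosen with earlier results of these data known. All member probe sets are reported, the brightest of a gene first. Up to 4 genes with the smallest adjusted p are named from a list in the comparison described, and the 5 probe sets with the highest Pearson r to Krt14, Krt10, Krt15 and Krt19 are given. Of 132 listed genes 127 were on the array. Alternatives were other filters, centring, a hybridization covariate, the replicate block, probe set means, the arrays of a comparison alone, the methods' t-test and leaving out each array. Upstream sequences were RefSeq's on GRCm38.p6. Figures used Python 3.11.15, pandas 2.3.3 and matplotlib 3.10.9.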

Additional observations from a re-analysis of the deposited data

Results flagged for a closer look

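For 6 keratins the change from control differed between the genotypes by a test of the difference itself, always more negative in D6-deficient skin. Among all tested probe sets 5.4% passed this test at day 2 and 0.608% at day 4, 2.62% and 0.416% in that direction. On the log2 scale the D6-deficient change minus the WT change at day 2 was -2.85 for Krt79, -1.70 for Krt15, -1.33 for Krt80 and -1.16 for Krt24. At day 4 it was -1.36 for Krt5, -1.23 for Krt14 and -1.36 for Krt24. Each value rests on 12 arrays, and the values of day 2 and day 4 share the 6 control arrays. The day 4 values include the control differences that the contrast subtracts, 0.70 for Krt5, 0.73 for Krt14 and 0.59 for Krt24. At day 4, 0 keratins were left with the 3-fold threshold or by the methods' t-test after Benjamini-Hochberg. Krt24 was under the array medians on all treated D6-deficient arrays, so that the sizes of its differences are uncertain. Its calls were lost without any 1 of 8 of the 12 arrays at day 2 and 10 of the 12 at day 4.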

How the results depend on the processing

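Counts are keratins passed of 10, for days 1, 2, 4 and 6 where 4 are given. Requiring in addition a change of more than 3-fold left 1, 3, 4 and 0 in WT and 1, 3, 5 and 0 in D6-deficient skin, 4 in each genotype from day 4 to day 6, 2 and 0 for the relative genotype difference at days 2 and 4, and 0, 2 and 0 for the same-day difference at days 0, 2 and 4. The methods' t-test, unadjusted with the same fold, gave 1, 3, 4 and 0, then 1, 3, 5 and 0, then 4 and 4, with 0 for the relative difference at day 4 and 0, 2 and 0 for the same-day differences. After Benjamini-Hochberg it gave 0 in WT at day 6, 5 and 1 in D6-deficient skin at days 1 and 6, 0 and 2 from day 4 to day 6 in WT and D6-deficient skin, and 0 for the relative difference at day 4 and the same-day differences at days 0, 2 and 4. With the arrays of a comparison alone, the counts were 6 in D6-deficient skin at day 1, 5 from day 4 to day 6, 7 for the relative difference at day 2 and 0 for the same-day difference at day 4. Leaving out the lowest 50% of probe sets, which removes Krt19 and Krt24, gave 1 in D6-deficient skin at day 6. The mean of a gene's probe sets gave 1 at day 0 between the genotypes. The cause of these shifts was not tested where the alternative's construction does not give it.

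Over fits without 1 array, the count ran from 0 to 4 in WT at day 6, from 0 to 2 between the genotypes at day 0, from 1 to 4 at day 2 and from 0 to 2 at day 4, and from 2 to 5 and 2 to 4 for the relative difference at days 2 and 4. WT day 4 stayed at 7 and D6-deficient day 4 ran from 7 to 8.

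With the replicate number as a block, all 190 gene values and all 19 counts kept their direction and side of the threshold, with 7 keratins at day 4 in WT and 8 in the mutants, for example. The numbers did not pair the arrays, since deviations of same-numbered arrays correlated at -0.35 to 0.48 over 135 pairs (median -0.01) and those of other arrays at -0.45 to 0.56 over 270 pairs (median 0.01). Of the single-gene values under alternatives other than leaving out an array, 1703 kept their call, 136 lost it and 23 gained it. Values near 0 that did not pass can change sign under centring, which shifted whole comparisons by as much as 0.07. A covariate for sets of 17 and 13 arrays changed no call. The sets came from clustering hybridization controls into a fixed number of sets, which does not show that the arrays were separate. All 3 D6-deficient day 6 arrays fell in the larger set.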
